A study of Mus musculus with 15 samples.

Results

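Sites bound by Sp7 in primary mouse osteoblasts were taken as the regions in which both FLAG ChIP-seq libraries of cells with tagged Sp7 had a peak and a wild-type FLAG control had none. Peaks were joined where they shared at least 1 bp. Of 3683 merged regions of the Sp7 libraries, 2097 (56.9%) met this rule. They are called shared regions here, and "met" means an overlap of at least 1 bp. Both Sp7 libraries came from calvarial osteoblasts of C57BL/6 pups at postnatal day 1 with the genotype Sp7-BioFL/BioFL, in which each Sp7 allele carries the tag. The control came from wild-type osteoblasts of the same strain and age, taken through the same pulldown with the M2 antibody against FLAG. All 3 lists were called against 1 input library, which was of the tagged genotype, per the labels. The labels do not say how many pups were pooled or whether the replicates came from separate animals, so the spread between them may be technical. Peak positions give no readout of cell identity, so the labelled cell type was not checked. The series holds 15 samples, of which 12 have a peak list. The other lists used here come from MC3T3-E1, a calvarial pre-osteoblast line at passages 5 to 10, grown for 1 week with BMP2 at 10 ng/ml, beta-glycerophosphate at 10 mM and ascorbic acid phosphate at 50 ug/ml. Those cells carried FLAG-tagged Sp7, Dlx5, Sp1 or a form of Sp7 titled Sp7mut, whose change the labels do not describe, with 2 libraries each, or a GFP control with 1.

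Sp7, also called Osterix, is a transcription factor with zinc fingers of the Sp family. Mice without it form cartilage but no bone, because precursor cells do not become osteoblasts. Sp1, the founding member of the family, binds GC-rich DNA in most cell types, whereas Dlx5 is a homeodomain factor that binds AT-rich sites in the developing skeleton. In ChIP-seq, DNA bound by a protein is enriched with an antibody and sequenced, and a peak is a stretch where reads pile up over the input. A tag lets one antibody serve for every factor, and cells without the tag show what that antibody pulls down by itself.

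Tagged Sp7 gave 2666 peaks in replicate 1 and 3212 in replicate 2, against 183 in the wild-type control. The Sp7 lists were thus 14.6 and 17.6 times as long as the control list. With 2 lists against 1, the smallest one-sided p of an exact permutation test is 0.333, so peak numbers were not tested. Peaks were short. The median width was 195 bp in replicate 1, 176 bp in replicate 2 and 153 bp in the control, and the widest peak of each list spanned 498, 488 and 486 bp. A shared region had a median width of 227 bp (53 to 804 bp), and 2084 of the 2097 were made of 1 peak from each replicate. All shared regions together covered 502877 bp. Since the lists give positions only, no peak has a height and library depth is unknown.

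Replicate 2 stood apart from replicate 1 and from the control in peaks at a few sites, and this bears on what follows. It had 18 peaks on chromosome Y, where replicate 1 had 0 and the control 1. None of the 18 was met by the control or by a cell line list, but the cell line lists had only 1 to 7 peaks each on that chromosome. It also had 24 peaks that ended within the first 3.1 Mb of an autosome, 13 of them on chromosome 9 and 5 on chromosome 4. Replicate 1, the wild-type control and the GFP control had 0 there, and the tagged cell line lists had 2 to 15, with 0 on chromosomes 4 and 9. These peaks of replicate 2 had a median width of 86.5 bp. Since a shared region needs a peak of each replicate, none of these sites is among the 2097.

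The replicates found most of the same sites. Of the peaks of replicate 1, 2185 (82.0%, 95% Clopper-Pearson interval 80.4 to 83.4) met a peak of replicate 2. Of those of replicate 2, 2186 (68.1%, 66.4 to 69.7) met a peak of replicate 1. These intervals, like all others given here, cover counting error only. With both lists cut to their first 2666 rows, the shares were 76.2% and 76.1%. Beside the 2097 shared regions, 476 regions had a peak of replicate 1 alone and 1002 a peak of replicate 2 alone, all free of a control peak. Another 108 regions (2.93% of the 3683) lay over a control peak, and 80 of these had a peak of both replicates.

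A peak found in both replicates had nearly the same position in each. The midpoints lay 23 bp apart in the median shared region. Split in row order into 5 parts of 20% each, the shared regions had median distances of 17, 22.5, 24, 25 and 31 bp from the earliest part to the latest. The part of the joined span that both peaks covered fell along the same order, from a median of 74.1% to 63.0%. Widths were not alike in this way. Over the 2097 regions, the widths in the 2 lists had a Spearman correlation of 0.12, and the peak of replicate 1 was the wider one in 1253 regions and that of replicate 2 in 832.

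Peaks early in a list were found in the other list more often than late ones. Each list was split into 10 parts of 10% of its rows. In replicate 1, at least 94.8% of the peaks in each of the first 5 parts were met by replicate 2, and the later parts had 86.5, 77.5, 59.0, 61.8 and 49.1%. In replicate 2, replicate 1 met 91.0% of the first part, 305 of 321 peaks in each of the next 2, and 23.0% of the last. Ranked by width instead, the parts of replicate 1 lay between 78.7% and 87.3%. In replicate 2 they lay between 58.6% and 76.7%, except for the narrowest part at 43.2%. The rule by which the authors ordered the rows is not given in the sources used here.

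**Figure D1:**
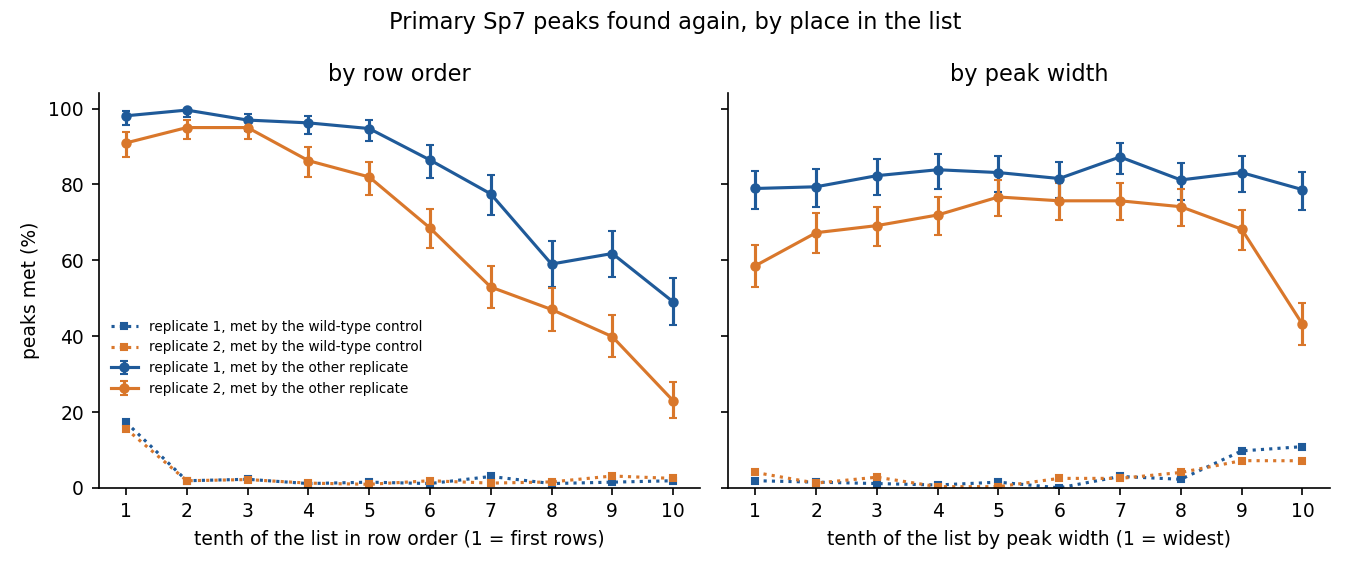
Percentage of the peaks of each primary Sp7 list met by the other replicate (solid lines, bars are 95% Clopper-Pearson intervals) and by the wild-type control (dotted lines), for 10 equal parts of the list in row order (left) and by width (right). In row order the share found again is 49.1% and 23.0% in the last part, and control peaks gather in the first part; by width the lines are flatter, apart from the narrowest part of replicate 2.

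A site early in one list was early in the other. The row numbers of the shared regions in the 2 lists had a Spearman correlation of 0.79 over 2097 regions, which share libraries and are not independent. As a percentage of the list, the positions differed by a median of 10.1 points, and they differed by over 50 points in 28 regions. Of the 218 shared regions in the first 10% of replicate 1 and the 245 in the first 10% of replicate 2, 176 were the same regions, which is 80.7% of the former and 71.8% of the latter.

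**Figure D2:**
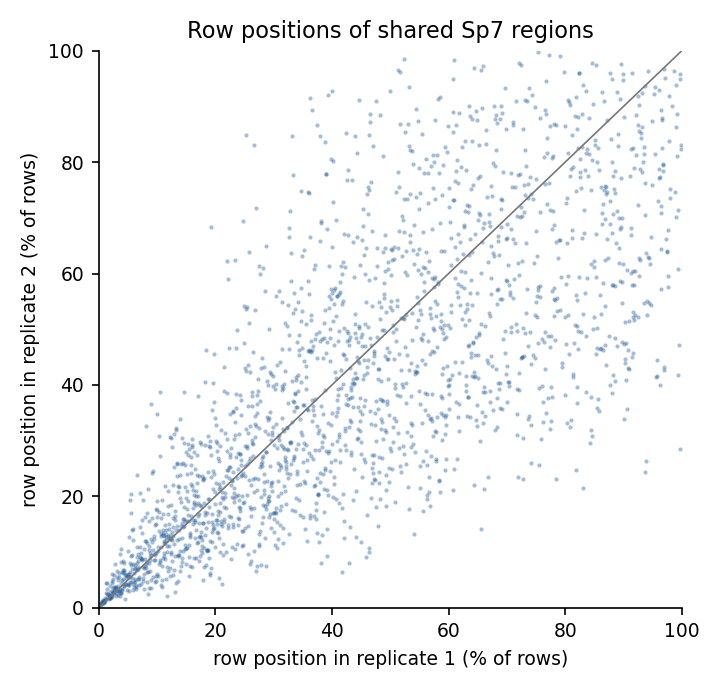
Row position of each of the 2097 shared regions in replicate 1 (x axis) and in replicate 2 (y axis), as a percentage of the rows of the list; the line marks equal positions. Points lie close to the line at the start of the lists and spread towards the end.

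Most peaks missing from the other replicate stood late in their list. In replicate 1, 443 of the 481 unmatched peaks (92.1%) were in the later 50% of rows, and in replicate 2 863 of 1026 (84.1%). They were seldom near misses: 8.94% and 6.63% had a peak of the other replicate within 1 kb, and the median distance to one was 89.9 and 131 kb. Early unmatched peaks were almost all of replicate 2. Outside control peaks, the first 20% of rows held 2 unmatched peaks in replicate 1 and 42 in replicate 2. Of those 42, 31 (73.8%) were met by none of the cell line lists, against 27.8% of all such unmatched peaks of replicate 2. Of the same 42, 15 lay at a chromosome start as defined above, and 30 were narrower than 100 bp. In the last 20% of replicate 2, by contrast, 34 of 429 unmatched peaks (7.93%) were that narrow. Replicate 2 had 225 peaks under 100 bp in all and replicate 1 had 92, and 37.8% of the former and 68.5% of the latter were found in the other list.

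A small part of the unmatched peaks of replicate 2 came in tight groups. Within 10 kb of one another, 3 or more of them formed 9 runs with 49 of the 1003 unmatched peaks outside control peaks, and replicate 1 had 0 such runs. Of the control peaks, 14.8% were in runs of 2 or more, with at most 3 in a run. The longest of the 9 runs of replicate 2 was chr9:3016296-3036606, with 11 peaks of a median width of 88 bp, the first of them in row 33. A run of 9 peaks at chrY:2876080-2892598 began at row 365, and one of 7 peaks at chr17:13743604-13745918 at row 565. None of the peaks in these 3 runs was met by a cell line list, which also held for 279 (27.8%) of the 1003.

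The wild-type control touched few Sp7 peaks, and these were densest at the top of the lists. It met 3.26% of the peaks of replicate 1 and 3.21% of those of replicate 2. In the first 10 rows it met 7 in each list, in the first 100 rows 30 and 36, and after row 100 57 and 67, which is 2.22% and 2.15% of those rows. The first control peak, chr9:21754906-21755033, was also in row 1 of both Sp7 lists, and the second, chr15:72399127-72399227, in row 2 of both. The third, chr19:4989112-4989247, was in rows 3 and 4, and the fourth, chr7:6362885-6363040, in rows 4 and 11. Each of these 4 sites was met by all 9 cell line lists, GFP included. The fifth, chr4:150978702-150978840, stood in rows 7 and 10 and was met by 2 of the 9.

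Later control peaks recurred less. Of the first 50 control rows, 44 were met by both Sp7 lists, and of the last 50, 3 were. In all, 82 of the 183 control peaks (44.8%) were met by both lists and 73 (39.9%) by neither. Of those met by either Sp7 list, 75.5% (66.3 to 83.2) were met by the GFP control of the cell line, against 17.8% (9.84 to 28.5) of those met by neither. Over the 80 regions with a peak of all 3 primary lists, row numbers in the control had a Spearman correlation of 0.94 with those in replicate 1 and 0.92 with those in replicate 2. Of the 2097 shared regions, 7 (0.334%) met a GFP control peak. This low share follows in part from the rule. The rule drops regions over wild-type control peaks, and 75.5% of the control peaks met by an Sp7 list were GFP peaks too. None of the 80 regions over a control peak had a shared region within 10 kb. A count of 0 in 80 allows a share of up to 3.75% by a limit of 3 counts, and the upper Clopper-Pearson bound is 4.51%.

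With the control sites set aside, the earliest shared region was chr3:97860743-97860903 (mm9), in row 9 of replicate 1 and row 18 of replicate 2. It was followed by chr17:44447255-44447412 in rows 8 and 20 and chr19:23458763-23458967 in rows 10 and 22. The 10 leading regions stood between rows 8 and 25 of replicate 1 and between rows 18 and 42 of replicate 2. Their widths were 158 to 305 bp, the widest being chr10:66406383-66406687 in rows 19 and 26. The others were chr17:42534544-42534746, chr7:91224403-91224582, chr4:128896015-128896191, chr10:20194823-20194992, chr10:60257209-60257385 and 1 on chromosome 18. A region of a cell line group needed a peak of both its replicates and no GFP control peak. In the cell line, 9 of the 10 were Dlx5 regions, 8 were Sp7 regions, 8 were Sp7mut regions and 1 was an Sp1 region. Over all 2097 shared regions the shares were 69.1% for Dlx5, 39.6% for Sp7, 48.9% for Sp7mut and 4.53% for Sp1. With 10 regions the intervals are wide, such as 55.5 to 99.7% for Dlx5 and 44.4 to 97.5% for Sp7. Among the 10, the exception for Dlx5 was chr10:20194823-20194992, which was a region of none of the 4 groups. The site chr17:42534544-42534746 was a Dlx5 region and none of the other 3.

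Wider shared regions stood somewhat later in the lists. The median width was 207 bp in the first 20% of the shared regions in row order and 254 bp in the last, and mean width and mean row position had a Spearman correlation of 0.18 over the 2097 regions. The widest, chr13:37574242-37575045, spanned 804 bp and was in row 1277 of replicate 1 and row 470 of replicate 2. The next were chr4:137203491-137204114 (624 bp), chr1:81414935-81415527 (593 bp), chr6:47600930-47601497 (568 bp) and chr5:99169376-99169923 (548 bp). They stood between places 764 and 1502 of the 2097 in row order. All 5 were Dlx5 regions and 3 were cell line Sp7 regions. Among the 100 widest the shares were 72% and 43%, against 69.1% and 39.6% of all shared regions.

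The cell line lists were made from other cells and against other inputs, so they give a reading of the primary peaks that the rule did not use. Among all 3683 merged primary regions, 59.0% met a Dlx5 region, 32.0% a cell line Sp7 region, 40.1% an Sp7mut region and 6.38% an Sp1 region. These sets differ in size, with 23682 Dlx5, 5018 Sp7, 8201 Sp7mut and 8937 Sp1 regions. The shares of different factors are therefore not on an equal footing. The shared regions lay above this for Dlx5 (69.1%, 67.0 to 71.0), Sp7 (39.6%, 37.5 to 41.8) and Sp7mut (48.9%, 46.8 to 51.1), and below it for Sp1 (4.53%, 3.68 to 5.51). Regions of replicate 1 alone met Dlx5 in 51.7%, cell line Sp7 in 21.8% and Sp1 in 6.09% of cases. Regions of replicate 2 alone did so in 47.2%, 23.8% and 10.5%. Single Dlx5 lists gave the same order. Dlx5 replicates 1 and 2 met 70.5% and 82.8% of the shared regions, 54.8% and 68.1% of the regions of replicate 1 alone and 50.7% and 62.8% of those of replicate 2 alone. The 2 Sp1 lists went different ways: Sp1 replicate 1 met 4.91% of the shared regions against 6.72% and 11.8% of the single-replicate ones, and Sp1 replicate 2 met 28.0% against 18.7% and 24.9%. These are shares of regions, not of libraries, and no test was made of their differences.

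**Figure D3:**
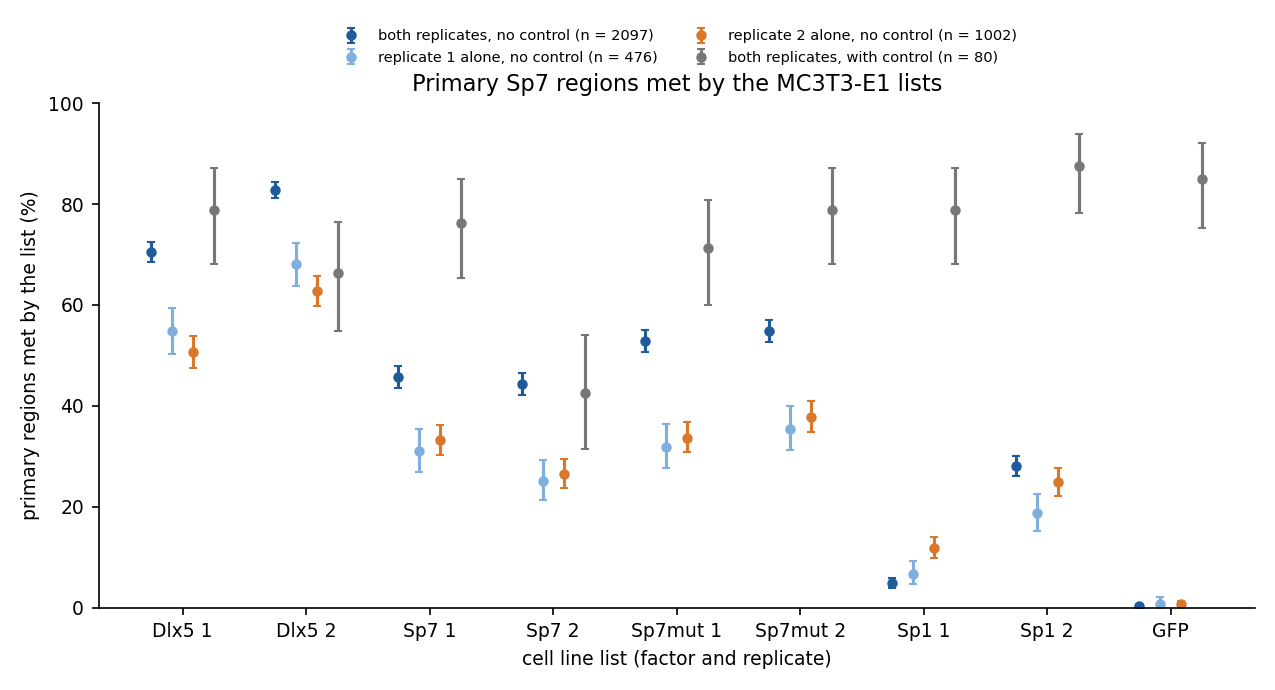
Percentage of primary Sp7 regions met by each MC3T3-E1 list (x axis, factor and replicate), for 4 classes of regions; bars are 95% Clopper-Pearson intervals. Shared regions (dark blue) lie above regions of a single replicate in all Dlx5, Sp7 and Sp7mut lists, and regions over a wild-type control peak (grey) are met at 42.5% or more by every list, the Sp1 and GFP lists included.

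Part of that gap went with the place in the list. In the 5 parts of the shared regions in row order, earliest first, the share with a Dlx5 region was 83.8, 75.4, 66.7, 59.4 and 60.0%. That with cell line Sp7 went from 61.3% to 27.9%, and that with Sp7mut from 69.7% to 35.7%. The share with Sp1 was 4.06% in the first 20% and 7.62% in the last. Peaks of equal place were therefore compared, counting a peak as met when either Dlx5 list had it. In the last 20% of the rows of replicate 2, 68.9% (61.9 to 75.3) of the peaks found in replicate 1 and 67.6% (62.9 to 72.0) of those not found were met by Dlx5. In the last 20% of replicate 1 the shares were 76.3% (71.0 to 81.1) and 68.1% (61.7 to 73.9). In the first 20% of replicate 2 they were 91.0% (88.3 to 93.3) of 544 peaks and 23.8% (12.1 to 39.5) of 42. In the next 20% of the rows they were 86.4% (83.3 to 89.1) and 56.9% (43.2 to 69.8) in replicate 2, and 87.9% (84.8 to 90.7) and 55.6% (30.8 to 78.5) in replicate 1. In the middle 20% they were 79.8% and 82.0% in replicate 1, and 82.4% and 73.4% in replicate 2. In the 20% after that they were 79.4% and 73.8%, and 77.3% and 72.5%. The first 20% of replicate 1 held only 2 unmatched peaks. From the middle 20% onwards the intervals of matched and unmatched peaks overlapped in both lists, which does not show equal shares. The matched share was the higher one there except in the middle 20% of replicate 1. The intervals lay apart in the first 20% of replicate 2 and in the next 20% of both lists, where few peaks were unmatched. In the first 20% of replicate 2 the unmatched peaks were the mostly narrow ones described above, and the part of width and position in the gap was not tested.

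Regions over a wild-type control peak had another profile. Of the 80 with a peak of both Sp7 replicates, the Sp1 lists met 78.8% and 87.5% and the GFP control 85.0%, where the same lists met 4.91%, 28.0% and 0.334% of the shared regions. For Dlx5 the shares of these 80 were 78.8% and 66.3%. The classes were parted by the wild-type control, so the contrast in GFP follows in part from the rule.

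Shared regions were spread over all autosomes and were sparse on chromosome X. Per Mb, taken over the span between the outermost peaks of all lists, the autosomes held 0.867 shared regions and chromosome X 0.0810, with 13 regions in all. The autosomes were thus 10.7 times as dense. The single lists were as uneven, with 21 peaks on chromosome X in replicate 1 (0.788%) and 27 in replicate 2 (0.841%), on 6.25% of the span. In the cell line, chromosome X likewise held between 0.361% and 1.51% of the peaks of the tagged cell line lists. The wild-type control had 3 of its 183 peaks there (1.64%). Among autosomes, chromosomes 18, 13 and 17 were the densest at 1.09, 1.08 and 1.06 regions per Mb, and chromosomes 14 and 12 the sparsest at 0.603 and 0.655. Both replicates gave nearly this picture, and no autosome's share of the peaks differed between them by more than 0.533 percentage points. Replication ranged over the autosomes from 76.0% to 86.8% of replicate 1 peaks and from 62.7% to 76.3% of replicate 2 peaks. On chromosome X it was lower, at 66.7% of the 21 peaks of replicate 1 and 51.9% of the 27 of replicate 2.

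**Figure D4:**
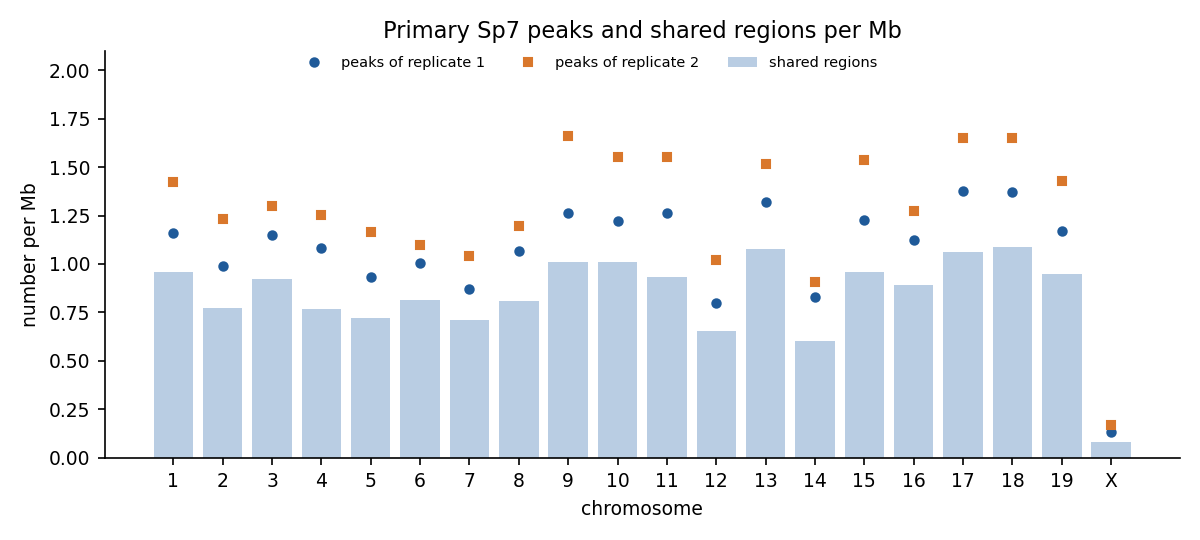
Number per Mb of shared Sp7 regions (bars) and of the peaks of each Sp7 replicate (points) on the autosomes and chromosome X. The replicates rise and fall together over the autosomes, and chromosome X holds 0.0810 shared regions per Mb against 0.867 on the autosomes.

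Along the chromosomes, shared regions lay mostly alone, with a minority close together. The nearest other shared region was at a median distance of 150 kb (quartiles 35.2 and 539 kb), and 276 regions (13.2%) had none within 1 Mb. Within 10 kb, 256 regions (12.2%, 10.8 to 13.7) had another one. They formed 119 pairs, 4 runs of 3 and 1 run of 6. Of the close regions, 49 were under 500 bp from the next. Close regions made up between 10.2% and 14.6% of each 20% of the shared regions in row order. Of them, 62.9% (56.7 to 68.8) met a Dlx5 region, against 69.9% (67.8 to 72.0) of the lone ones. The shares with cell line Sp7 (35.2% against 40.2%), Sp7mut (44.9% against 49.5%) and Sp1 (4.30% against 4.56%) were lower too. The intervals overlapped for each factor, which does not show equal shares, and no test was made. Regions of a single replicate had a shared region within 10 kb about as often, in 11.3% of cases for replicate 1 alone and 11.6% for replicate 2 alone.

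The run of 6 spanned 11.7 kb at chr1:64887570-64899295. Its first region, chr1:64887570-64887768, was in row 564 of replicate 1 and row 136 of replicate 2, and the other 5 stood between rows 1573 and 2269 and between rows 836 and 2696. In the cell line, 4 of the 6 were Dlx5 regions, the same number were Sp7mut regions, 3 were Sp7 regions and 0 were Sp1 regions. The 4 runs of 3 lay at chr3:88307973-88316932, chr16:74044706-74055852, chr4:62397658-62405898 and chr10:19316645-19322271, over 5.63 to 11.1 kb. All 12 regions in them were Dlx5 regions, and 9 were Sp7mut regions, while over all 256 regions with another within 10 kb the shares were 62.9% and 44.9%. The run on chromosome 16 held the earliest, chr16:74044706-74044942, in rows 153 and 170, and had no cell line Sp7 region.

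On a larger scale the densest stretch was on chromosome 17. It was picked after the values were seen, as the pair of adjoining 1 Mb bins with the most regions. There, 19 shared regions lay between 44100133 and 45540405, which is 19.4% of the 98 on that chromosome. The bins held 11 and 8 of them, and the span from the first region to the last held 13.2 per Mb. The stretch held 21 peaks of replicate 1, 23 of replicate 2 and 0 of the control. Neighbours were 7.57 to 333 kb apart, with a median of 57.1 kb, and shared regions covered 0.305% of it. The second leading region of the genome, chr17:44447255-44447412, was among them. Next in row order were chr17:45210249-45210433 in rows 158 and 135 and chr17:45414155-45414444 in rows 390 and 515. At the other end, chr17:45467068-45467231 was in rows 2181 and 1805. Of the 19, 16 were Dlx5 regions, 12 Sp7mut regions, 9 cell line Sp7 regions and 1 an Sp1 region, and 2 belonged to none of the groups. Over all 2097 shared regions the shares were 69.1% for Dlx5, 48.9% for Sp7mut, 39.6% for Sp7 and 4.53% for Sp1. Any of the groups met 71.1% of them. The difference was not tested. Elsewhere the fullest 1 Mb bins held 8 regions on chromosome 7 (from 74 to 75 Mb) and 7 each on chromosomes 1 and 12. Of 2582 bins, 1481 had no shared region and 121 had 4 or more, which took in 27.3% of the regions.

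Clustering was compared with the cell line groups at equal length, taking as many regions of each, 2097, from the start of its row order. Within 10 kb, 12.2% of primary Sp7 regions had another of their group, against 8.30% (7.15 to 9.56) for cell line Sp7, 9.01% (7.82 to 10.3) for Dlx5, 8.30% (7.15 to 9.56) for Sp7mut and 4.82% (3.94 to 5.82) for Sp1. At 50 kb the values were 29.0, 26.2, 27.2, 26.5 and 24.9%. This takes the whole primary list and only the start of the others. Among the first 1000 regions of each, the shares within 10 kb were 7.10% (5.59 to 8.87) for primary Sp7, 4.30% (3.13 to 5.75) for cell line Sp7, 5.80% (4.43 to 7.43) for Dlx5, 4.20% (3.04 to 5.64) for Sp7mut and 1.60% (0.917 to 2.59) for Sp1. At that length and window the primary value was still above the others, with an interval that overlapped those of all but Sp1. At 25 and 50 kb it was not: Dlx5 had 12.5% and 17.1%, and primary Sp7 12.3% and 16.7%. Neighbouring regions are not independent, and the difference was not tested.

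**Figure D5:**
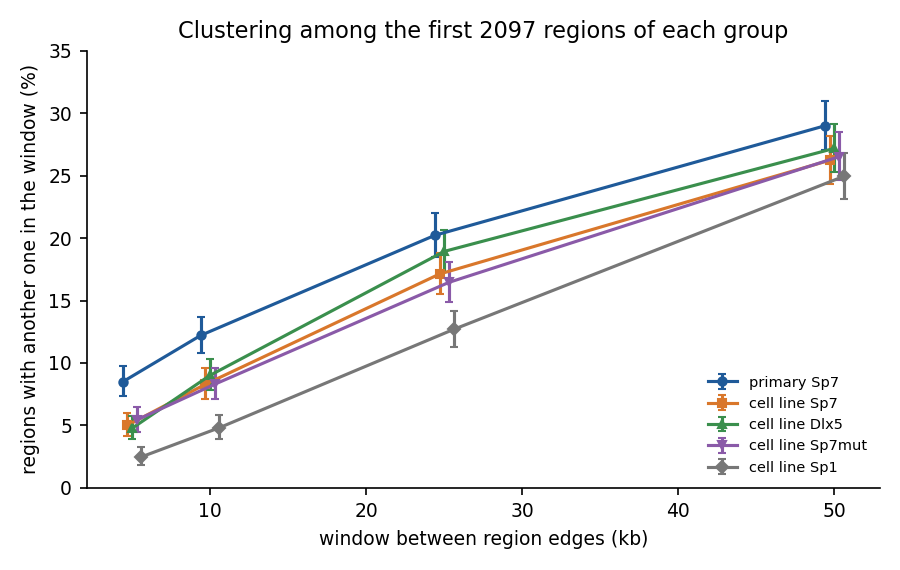
Percentage of regions with another region of the same group within 5, 10, 25 and 50 kb (x axis), for the 2097 earliest regions of every group; bars are 95% Clopper-Pearson intervals. Primary Sp7 lies highest at each window, from 8.49% at 5 kb to 29.0% at 50 kb, and the groups come together as the window widens.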

How the data were processed

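FLAG ChIP-seq was done in primary osteoblasts and MC3T3-E1 cells. The authors deposited 1 peak list per library, with the chromosome, start and end of each peak and no other value. Peaks were called per library against an input, per the labels, and coordinates are in mm9 as listed in the submitters' processing notes. Which aligner, peak caller and threshold were used is not given in the sources used here. Starts were shifted by 1, so coordinates are 1-based.

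Groups came from the sample titles. Peaks were merged and compared by overlap of at least 1 bp. Row position is the row number as a percentage of the list, averaged over the replicates. Percentages carry 95% Clopper-Pearson intervals, and no test between groups was made, since 2 libraries stand against 1. Regions named in the text are the 10 leading by row order, the 5 widest, the first 5 control peaks and the 5 largest runs within 10 kb. The members and lists were chosen with earlier results of these data known. The densest stretch and the peaks of replicate 2 alone were picked after their values were seen.

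Planned results on transcription starts, introns and exons, motifs and nearby genes, with their gene lists, were not run, because no annotation or sequence of mm9 was used here. Overlaps and runs were checked on simulated lists with planted answers. Python 3.11.15, numpy 2.4.6, scipy 1.17.1 and matplotlib 3.10.9 were used.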

Additional observations from a re-analysis of the deposited data

How the results depend on the processing

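With 1 control library and no read counts, depth and the spread of the control are unknown, and the labels do not tie the replicates to animals. No paired analysis was possible because the control has 1 library and the results come from no test. Of 82 alternative values, 50 were counted as staying. Shares had to lie within the counting interval of the reported value, and counts within 1.5 times. The correlation was held to its own interval, and the mean number of peaks per list to the SD of the 2 lists. Some values could not move. Either list always lies within that SD, and the leading regions all remain when a replicate or the control filter is dropped. The count of 50 is therefore no measure of stability. The number of shared regions was 606 from the wider 50% of each list and 1080 from the earlier 50% of rows. With a replicate left out it was 2576 or 3104, which is only the number of regions of 1 list without a control peak. Under the other alternatives it lay between 1799 and 2177. The shares of replicate 1 and replicate 2 found again were 70.2% and 58.3% with an overlap of 50% of both peaks, 45.8% and 38.0% for the wider 50%, 85.6% and 70.8% for the earlier 50%, and 76.2% and 76.1% at the shorter length. Without peaks under 100 bp, an alternative added after seeing the data, the share for replicate 1 was 79.4%. For the wider 50%, the earlier 50% and the setting without peaks under 100 bp, the control list was cut in the same way. The wider 50% of the control met 0.900% and 1.31% of the wider peaks, and its earlier 50% met 4.73% and 4.17% of the earlier ones. Regions with another within the window were 8.49% at 5 kb, 20.2% at 25 kb and 29.0% at 50 kb. Within 10 kb they were 10.1% when peaks of either replicate under 500 bp apart were joined before the rule was applied. They were 3.63% for the wider 50%, 7.31% for the earlier 50% and 10.0% with an overlap of 50%. With a replicate left out they were 14.2% to 18.6%. Each of these sets has another number of regions. The correlation of row numbers was 0.77 for the wider and 0.74 for the earlier 50%. Of the 10 leading regions, 2 were left by the wider 50% and 9 or 10 by the other alternatives.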
